A study of Mus musculus with 33 samples.

Results

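The MNTB is the medial nucleus of the brainstem's trapezoid body. Its gene expression was compared between 4 mice at postnatal day 14 (P14) and 5 mice at postnatal day 6 (P6), 9 of the 33 mice of the study. The 9 were taken by their age labels, and all 16686 probe sets of the arrays were tested between them. All 33 animals were wild-type FVB mice (their strain tag reads FVN) and received no treatment. Each array held tissue of a single mouse, lifted with a needle out of a live brain slice, so the samples are enriched for this nucleus but hold every cell type in it. The other 24 mice were taken between P0 and P4. They entered the estimate of the spread and gave the course before P14. Mice carry the number of the litter they came from. The numbers 1, 2, 3 and 5 occur at both ages and the number 4 at P6, and whether a number marks the same litter at both ages is not stated beyond the label.

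This nucleus is a relay of the auditory brainstem. Its principal neurons are glycinergic and are each driven by the calyx of Held, a giant glutamatergic terminal from the opposite cochlear nucleus, and they pass on fast, timed inhibition that is used to locate sounds. In mice the calyx forms in the days after birth, whereas hearing begins towards the end of the interval compared here. Over this time the axons become myelinated, the calyx changes its shape and release properties, and receptors and channels take on faster forms.

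The values are log2 expression levels on an arbitrary scale. A difference of 1 is a doubling, and levels of different genes cannot be set against each other. In the deposited values the P14 arrays were on average brighter than the P6 arrays. The median log2 level of an array averaged 5.07 ± 0.039 at P14 and 4.95 ± 0.075 at P6, and the upper quartile 6.93 ± 0.11 and 6.68 ± 0.24 (SD, n = 4 and 5). The ages overlapped, with an upper quartile of 6.88 in the P6 mouse of litter 1 and 6.79 in the P14 mouse of litter 2. Counts of calls between P14 and P6 with all mice, and median differences, are therefore given also after quantile normalization. It gives all arrays the same distribution of levels. Differences, SEs and adjusted p-values of single genes, and all levels, are those of the deposited scale unless stated. A probe set was called where the Benjamini-Hochberg adjusted p of limma's test was under 0.05. Mice of the same age resembled each other more than mice of the other age did: the correlation of levels across probe sets was 0.978 to 0.989 among P14 mice, 0.967 to 0.990 among P6 mice and 0.939 to 0.966 between ages. The P6 mouse of litter 4 stood apart, with an upper quartile of 6.28 against 6.68 to 6.88 in the other P6 mice, and had the lowest array weight of the 9, 0.271. Next lowest was the P14 mouse of litter 2, with a weight of 0.507. Mice numbered 4 also had the lowest upper quartile of their age at P1 and P2 (6.51 and 6.39), but not at P0 and P3 (6.65 and 6.74).

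On the deposited scale 2627 probe sets were higher at P14 than at P6 and 858 were lower, 15.7% and 5.14% of all tested. On the quantile-normalized scale 1827 were higher (10.9%) and 1740 were lower (10.4%). The share of calls in the higher direction was thus 75.4% on the deposited scale and 51.2% after quantile normalization, so the balance of rises and falls depends on the scaling. No probe set was called in opposite directions: 1816 were called higher on both scales and 850 lower on both, while 811 were called higher on the deposited scale alone and 890 lower on the quantile-normalized scale alone. The scales differed most among bright genes. Among the 5562 brightest probe sets, 1186 were called higher and 491 lower on the deposited scale, and 724 higher and 1183 lower after quantile normalization. Among the 5562 dimmest the counts were 336 and 53 on the deposited scale, and 324 and 66 after quantile normalization. The median difference over all probe sets was 0.054 on the deposited scale, -0.015 after quantile normalization and -0.062 with each array centred on its median, the last a shift of -0.116. Below, "rose" and "fell" are used for genes called on both scales.

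**Figure D1:**
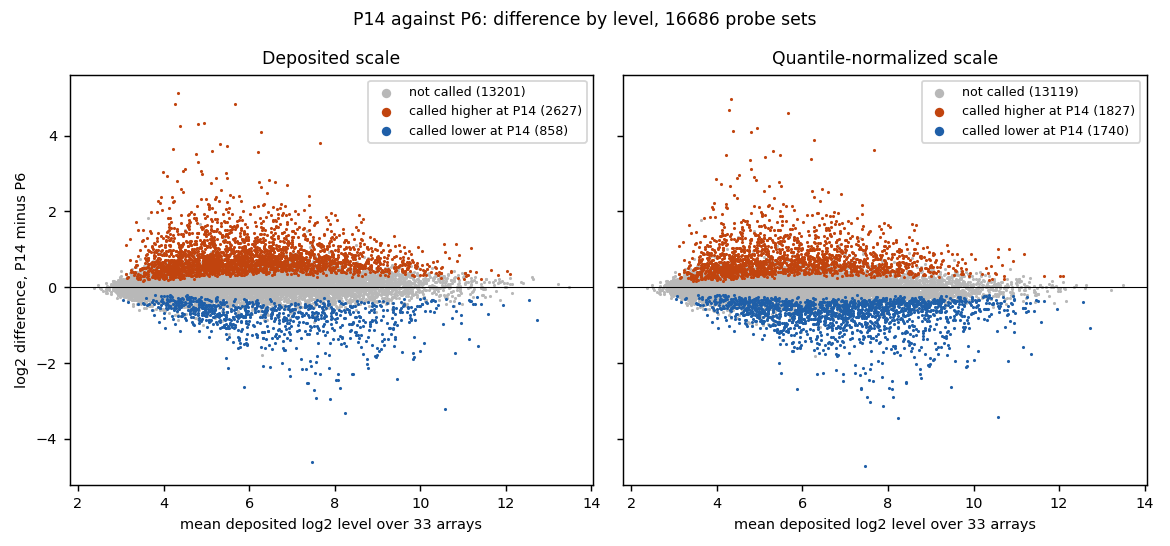
Log2 difference of each of the 16686 probe sets, P14 minus P6, against its mean log2 level over the 33 arrays, on the deposited scale (left) and after quantile normalization (right). Orange points were called higher at P14 (2627 and 1827) and blue points lower (858 and 1740); bright probe sets move downwards in the right panel, while the largest rises and falls stay in both.

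Separation between the mice was common among these calls. Of the 1816 rises, all P14 mice lay above all P6 mice in 1562, and of the 850 falls all P14 mice lay below all P6 mice in 598. Over all probe sets, all P14 mice lay above the P6 mice in 13.9% and below them in 4.47% on the deposited scale, and in 9.82% and 9.86% after quantile normalization. Differences of at least 1 log2 unit were called in 615 probe sets higher at P14 (3.69%) and 202 lower (1.21%) on the deposited scale, and in 407 (2.44%) and 309 (1.85%) after quantile normalization. Log2 levels of single genes are given below per mouse on the deposited scale, in the order of litters 1, 2, 3 and 5 at P14 and 1, 2, 3, 4 and 5 at P6. No detection call came with the values. Levels below the array median, near 5, may be close to background, so a difference with an age below it may be compressed.

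The largest rise was that of Opalin, an oligodendrocyte membrane glycoprotein of myelin. Its log2 level was 8.95, 8.44, 9.19 and 9.11 in the P14 mice, against 3.87, 3.88, 4.04, 3.76 and 3.47 in the P6 mice. The ages were far apart, with a log2 difference of 5.12 ± 0.13 (SE) and an adjusted p = 5.21e-23; quantile normalization gave 4.97. Mal, a proteolipid of compact myelin, had 11.07, 10.82, 11.15 and 11.14 in the P14 mice, against 6.80, 5.85, 6.48, 5.92 and 6.04 in the P6 mice. It differed by 4.83 ± 0.14 (adjusted p = 1.41e-21). Gng8, a gamma subunit of G proteins, had 8.90, 9.03, 8.69 and 9.05 in the P14 mice, against 4.11, 4.12, 4.75, 3.85 and 3.62 in the P6 mice, and every P6 level lay in the range where background matters. Its difference was 4.83 ± 0.25 (adjusted p = 1.79e-15). Gfap, the intermediate filament of astrocytes, had 9.5, 8.94, 9.10 and 9.09 in the P14 mice, against 5.80, 4.89, 4.68, 4.02 and 4.77 in the P6 mice, the highest of the P6 mice being that of litter 1. The other genes among the 12 largest rises were Ermn, Gjb1, Trf, Apod, Aspa, Cox8b, Prox1 and Glra1, with differences of 3.60 to 4.31. Cox8b, a subunit of cytochrome c oxidase, was high in all P14 mice, with 10.72, 9.63, 10.91 and 10.46 in the P14 mice, against 7.29, 6.15, 7.38, 6.94 and 5.77 in the P6 mice. Prox1, a homeobox transcription factor, had 8.06, 6.93, 7.46 and 8.12 in the P14 mice, against 4.01, 4.31, 3.89, 3.64 and 4.15 in the P6 mice.

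Among named genes the largest fall was that of Cacna1e, the pore subunit of R-type calcium channels. Its log2 level was 4.43, 5.47, 4.73 and 4.38 in the P14 mice, against 8.27, 8.23, 8.13, 7.51 and 8.21 in the P6 mice. All P14 mice lay far below all P6 mice, with a difference of -3.32 ± 0.17 (adjusted p = 2.9e-15) and -3.44 after quantile normalization. Syt1, a calcium sensor of transmitter release, had 7.33, 8.32, 7.44 and 7.29 in the P14 mice, against 10.92, 10.93, 10.68, 10.58 and 10.94 in the P6 mice. The P14 mouse of litter 2 was the highest at P14, yet it lay more than 2 log2 units below the lowest P6 mouse. The difference was -3.22 ± 0.13 (adjusted p = 9.58e-18). Rgs8, a regulator of G protein signalling, had 5.35, 5.74, 5.13 and 5.37 in the P14 mice, against 8.74, 8.62, 8.33, 7.52 and 8.49 in the P6 mice. Scn3b, a beta subunit of sodium channels, differed by -2.92 ± 0.22 (adjusted p = 1.52e-11). Then came Syt17, Chrna5 (a nicotinic receptor subunit), Tex47, Crabp1 (a retinoic acid binding protein), Cntnap5b, Kcnip1 (a subunit of A-type potassium channels), Tafa1 and Slc8a1 (a sodium-calcium exchanger), with differences of -2.72 to -2.34. A probe set annotated to more than 1 gene, and so left unnamed, fell by more than any of these. It had 3.78, 4.19, 4.27 and 4.21 in the P14 mice, against 8.83, 8.45, 9.14, 8.45 and 8.78 in the P6 mice, a difference of -4.62 ± 0.31.

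**Figure D2:**
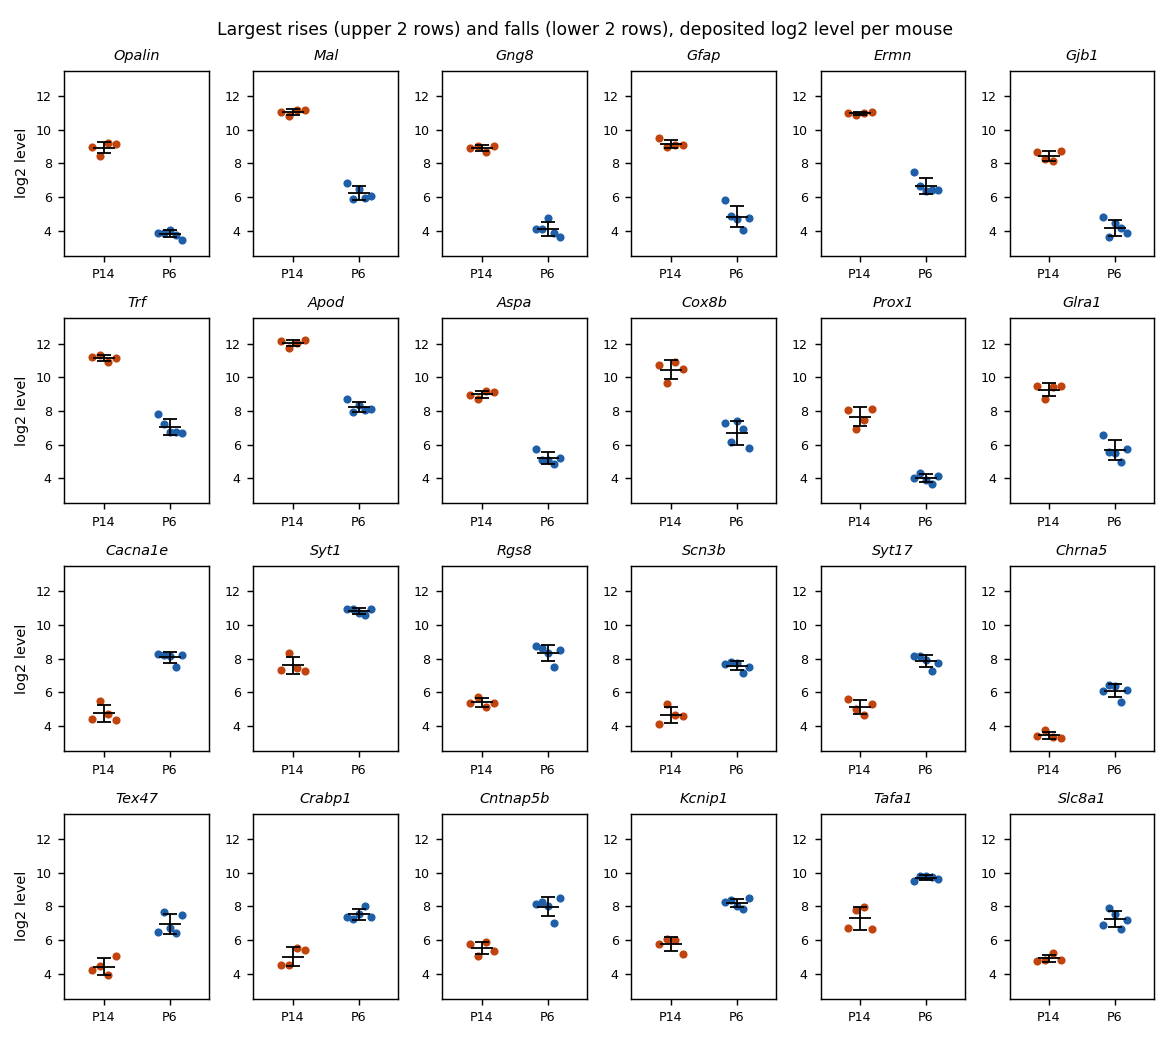
Deposited log2 level in each P14 mouse (orange) and each P6 mouse (blue) for the 12 genes with the largest rises (upper 2 rows) and the 12 with the largest falls (lower 2 rows), with the mean and SD of each age. The genes were taken among those called on both scales whose ages do not overlap, so the separation in the 24 panels follows from the choice.

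Genes of myelin rose as a whole. Of 25 measured markers of myelinating oligodendrocytes, 25 were called higher on each scale, and their median difference was 2.42 on the deposited scale and 2.15 after quantile normalization. Over all genes, each represented by its brightest probe set, 16.3% were called higher and 5.26% lower on the deposited scale, 11.3% and 10.7% after quantile normalization, and the median differences were 0.056 and -0.015. The counts of lists below are to be read against these shares. Averaged over the 25 markers, the level of a mouse was 8.99 to 9.32 at P14 and 6.31 to 6.90 at P6. In mixed tissue, more cells of a type and more RNA per cell cannot be told apart, nor can fewer cells and less RNA per cell.

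The myelin genes differed widely in size. Ermn, a cytoskeletal protein of myelinating oligodendrocytes, had 10.97, 10.87, 10.99 and 11.04 in the P14 mice, against 7.46, 6.62, 6.36, 6.43 and 6.43 in the P6 mice. Its P6 mouse of litter 1 was ahead of the others, as for Mal and Gfap. Trf, the iron carrier transferrin, differed by 4.09 ± 0.22 (adjusted p = 1.01e-14). Aspa, which splits N-acetylaspartate and supplies acetate for lipid synthesis, had 8.92, 8.68, 9.19 and 9.12 in the P14 mice, against 5.75, 5.11, 5.08, 4.82 and 5.23 in the P6 mice. Mog and Mag, adhesion proteins of the myelin surface, differed by 3.58 and 2.42. Mbp, the basic protein that compacts myelin, differed by 0.93, at levels of 9.20 ± 0.12 at P14 and 8.28 ± 0.18 at P6 (SD, n = 4 and 5). The smallest rise in the list was that of Hapln2, a link protein at nodes of Ranvier, with 0.42.

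The promoter window of Opalin is shown because this gene had the largest rise. The window runs from 250 bases before to 50 bases after the start of transcription, as RefSeq gives it on GRCm38.p6. The letters CTGGCAC, a form of the motif of Myrf, a master regulator of myelin genes, were searched on both strands in the windows of the 21 myelin markers that have one, and capitals mark them here (on this strand as GTGCCAG). They occurred in 4 of the 21 windows (19%), those of Cnp, Hapln2, Mag and Opalin, against 5.7% of all 27025 genes. A match is a run of letters, not a binding site. The Opalin window lies at chr19:41077064-41077363, minus strand.
Opalin: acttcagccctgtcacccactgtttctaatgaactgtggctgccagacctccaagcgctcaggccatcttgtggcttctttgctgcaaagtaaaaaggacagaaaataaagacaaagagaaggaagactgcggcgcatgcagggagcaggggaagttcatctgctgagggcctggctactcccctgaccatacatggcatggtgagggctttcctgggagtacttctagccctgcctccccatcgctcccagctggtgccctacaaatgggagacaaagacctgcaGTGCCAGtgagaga

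Earlier stages of the same lineage gave calls in both directions. Of 16 measured markers of oligodendrocyte precursors and newly formed oligodendrocytes, 5 were called higher and 2 lower on the deposited scale, and 3 and 3 after quantile normalization (median difference 0.21 and 0.035). Leaving out the P14 mouse of litter 1 or the P6 mouse of litter 4 left 3 called higher, and leaving out both mice of low array weight left 2. Pdgfra, the growth factor receptor that defines precursors, had 6.77, 6.82, 6.50 and 6.73 in the P14 mice, against 8.03, 8.15, 7.42, 6.95 and 7.58 in the P6 mice. It fell by 0.92 ± 0.22 (adjusted p = 0.00263), and the ages did not overlap. Sox6, a factor of the precursor stage, fell by 0.53 ± 0.14 with overlapping ages. Enpp6, a marker of newly formed oligodendrocytes, had 7.99, 7.14, 7.68 and 8.13 in the P14 mice, against 7.48, 6.90, 6.92, 6.20 and 6.54 in the P6 mice, and the ages overlapped. Its difference was 0.93 ± 0.23 (adjusted p = 0.00358). Erbb3, a neuregulin receptor, is not in this list and is counted with the growth factors and their receptors. It had 6.63, 6.87, 6.45 and 6.54 in the P14 mice, against 4.25, 4.38, 4.19, 4.32 and 4.11 in the P6 mice, and differed by 2.37 ± 0.078 (adjusted p = 2.92e-20).

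Genes of the node of Ranvier and its flanks gave more rises than falls. Of 16 measured genes of nodes and paranodes, 6 were called higher and 1 lower on the deposited scale, and 5 and 2 after quantile normalization (median difference 0.18 and 0.056). Lgi3, a secreted protein of the juxtaparanode, rose by 2.13 ± 0.17. Kcna1, a potassium channel kept under the myelin beside the node, had 7.66, 7.44, 7.10 and 7.12 in the P14 mice, against 6.24, 6.09, 6.01, 5.52 and 6.11 in the P6 mice, and Cntn2, its adhesion partner there, differed by 1.14 ± 0.11. Scn8a, the sodium channel of mature nodes, differed by 0.85 ± 0.22 (adjusted p = 0.00465). Kcnq3, a slow potassium channel subunit that also sits at nodes, fell by 1.23 ± 0.13 (adjusted p = 1.25e-08).

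Cholesterol, a main lipid of myelin, is made in the brain itself. Of 17 measured genes of its synthesis, 11 were called higher on the deposited scale and 10 after quantile normalization, and 0 were lower on either (0 also at an unadjusted p under 0.05 in limma's test). The median difference was 1.05 and 0.81. Ebp, a sterol isomerase, had 6.66, 6.40, 6.76 and 6.53 in the P14 mice, against 5.63, 4.64, 4.84, 4.54 and 5.26 in the P6 mice. Its difference was 1.61 ± 0.20 (adjusted p = 3.58e-07). Sc5d, Lss and Msmo1, which also act on the sterol ring, differed by 1.54, 1.51 and 1.44. Hmgcs1, an early enzyme of the pathway, differed by 1.06. Fdps, which makes farnesyl diphosphate, differed by -0.046 and was not called.

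The window of Hmgcs1 is shown because 9 of the called cholesterol genes have a window and each of the 9 holds the letters CCAAT, the box to which NF-Y binds, read on both strands. In all, 14 of 14 measured cholesterol genes with a window held them, against 41.1% of all genes. The letters TCACNCCAC, the form in which a sterol response element is often written, were in the window of Hmgcs1 alone among the 14, against 1.4% of all genes. Both motifs are in capitals below, where ATTGG is CCAAT on the other strand. The window lies at chr13:119690101-119690400, plus strand.
Hmgcs1: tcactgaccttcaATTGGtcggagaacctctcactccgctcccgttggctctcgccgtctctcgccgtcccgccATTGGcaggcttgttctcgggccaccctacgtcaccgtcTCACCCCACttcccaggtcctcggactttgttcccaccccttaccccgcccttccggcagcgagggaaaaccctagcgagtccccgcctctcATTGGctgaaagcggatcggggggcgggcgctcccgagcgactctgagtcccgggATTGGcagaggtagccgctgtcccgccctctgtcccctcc

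Astrocyte genes rose in part. Of 24 measured astrocyte markers, 13 were called higher and 1 lower on the deposited scale, and 11 and 3 after quantile normalization (median difference 0.50 and 0.25). The mean level of the list in a mouse was 7.96 to 8.22 at P14 and 7.17 to 7.57 at P6. Gfap, S100b (a calcium-binding protein), Gjb6 (an astrocyte connexin) and Kcnj10 (the Kir4.1 potassium channel) rose most. For Kcnj10 the levels were 9.05, 8.37, 9.05 and 8.82 in the P14 mice, against 7.0, 7.34, 7.78, 6.57 and 7.08 in the P6 mice. The ages did not overlap, and the difference was 1.67 ± 0.21 (adjusted p = 2.51e-07). Aldh1l1, a folate enzyme used to mark astrocytes, had 6.43, 6.60, 6.31 and 6.24 in the P14 mice, against 7.03, 7.02, 7.02, 6.26 and 6.99 in the P6 mice, and its P6 mouse of litter 4 lay within the P14 range. Its fall of 0.47 ± 0.16 (adjusted p = 0.0362) was lost without the P14 mouse of litter 1, 3 or 5 or the P6 mouse of litter 1, 2, 3 or 5. Without the P6 mouse of litter 4, 3 markers were called lower, and 2 with litter as a block. Sox9 and Glul differed by 0.018 and 0.052 and were not called.

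Connexins form the gap junctions that join these glia. Of 11 measured connexins and pannexins, 4 were called higher on both scales, and Panx1 was lower after quantile normalization and with arrays centred on their median, but not on the deposited scale (median difference 0.42 and 0.23). Gjb1, the connexin of myelin, had 8.69, 8.26, 8.12 and 8.70 in the P14 mice, against 4.83, 3.64, 4.44, 4.13 and 3.85 in the P6 mice. Its difference was 4.27 ± 0.18 (adjusted p = 9.39e-18). Gjb6 rose by 1.75 ± 0.28, Gjc3, an oligodendrocyte connexin, by 1.6 ± 0.21, and Gja1, the main connexin of astrocytes, by 0.84 ± 0.23.

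Most markers of microglia were called higher at P14. Of 19 measured, 15 were called higher on the deposited scale and 12 after quantile normalization, with a median difference of 0.76 and 0.60. With limma 0 were called lower, and 0 were lower at an unadjusted p under 0.05 in limma's test. The mean level of the list was 5.77 to 5.99 at P14 and 5.03 to 5.21 at P6. Csf1r, the receptor on which these cells depend, had 6.46, 6.19, 6.38 and 6.15 in the P14 mice, against 5.26, 4.94, 4.67, 4.53 and 4.98 in the P6 mice. Its difference was 1.42 ± 0.15 (adjusted p = 1.37e-08). Tyrobp, a signalling adaptor, Ctss, a lysosomal protease, and P2ry13, a nucleotide receptor, rose by 1.36, 1.19 and 1.17. Trem2 and Ptprc differed by 0.22 and 0.15 and were not called. Of 12 measured genes of complement and antigen presentation, 4 were called higher on the deposited scale and 3 after quantile normalization (median difference 0.28 and 0.16). C1qa, a subunit of the first complement component, had 4.77, 4.87, 4.88 and 4.35 in the P14 mice, against 3.58, 3.62, 3.79, 3.86 and 3.79 in the P6 mice. Cd74 and C3ar1 differed by -0.20 and -0.059 and were not called, and 1 gene of the list was called lower without the P6 mouse of litter 1.

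The calls among genes of vessels were rises. Of 19 measured endothelial markers, 14 were called higher on the deposited scale and 11 after quantile normalization, with a median difference of 0.76 and 0.53. The mean level of the list was 6.24 to 6.63 at P14 and 5.43 to 5.83 at P6. Slco1a4, an organic anion transporter of the blood-brain barrier, had 6.35, 5.24, 6.08 and 6.03 in the P14 mice, against 4.31, 4.14, 4.60, 4.61 and 4.2 in the P6 mice. Its difference was 1.55 ± 0.14 (adjusted p = 1.01e-09). Mfsd2a, which carries lipids across the barrier, rose by 1.49 ± 0.20, and Slc2a1, the barrier's glucose carrier, by 1.55 ± 0.19. Of the pan-endothelial markers, Pecam1, Tek and Kdr rose by 0.93, 1.00 and 0.77. Cdh5 and Cldn5 differed by 0.63 and 0.44 and were not called, though all P14 mice lay above all P6 mice in Cdh5. Of 13 measured markers of pericytes and smooth muscle, 7 were called higher on the deposited scale and 6 after quantile normalization (median difference 0.40 and 0.37). Vtn, a pericyte glycoprotein, differed by 1.47 ± 0.19, and Acta2, smooth muscle actin, had 5.52, 5.70, 5.51 and 4.14 in the P14 mice, against 3.62, 3.59, 3.34, 4.2 and 4.25 in the P6 mice. Its P14 mouse of litter 5 lay within the P6 range.

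Of 14 measured meningeal fibroblast markers, 4 were called higher on the deposited scale and 3 after quantile normalization (median difference 0.17 and 0.13). Dcn, a matrix proteoglycan, differed by 1.29 ± 0.27, while the collagen genes Col1a1 and Col1a2 differed by -0.053 and 0.019. The mean level of that list was 4.57 to 4.83 at P14 and 4.34 to 4.47 at P6 on the deposited scale. The ages did not overlap, but the median of an array also averaged higher on that scale at P14, 5.07 against 4.95. Mean levels of lists were not taken after quantile normalization. Of 9 measured ependymal and choroid plexus markers, Aqp1 was called lower and 0 were higher, with 1 higher without the P14 mouse of litter 2 or the P6 mouse of litter 3. At an unadjusted p under 0.05, limma's test gave 1 higher. Their median difference was -0.083 and -0.071, and their mean level 4.11 to 4.31 at P14 and 3.99 to 4.62 at P6. Of 3 measured erythroid markers limma called 0 on the deposited scale (0 also at an unadjusted p under 0.05), with a median difference of -0.10 and -0.12. Alas2 was called lower after quantile normalization, and with litter as a block 1 erythroid marker was lower. The part of glial, vascular and meningeal RNA in the results on neurons below was not tested.

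**Figure D3:**
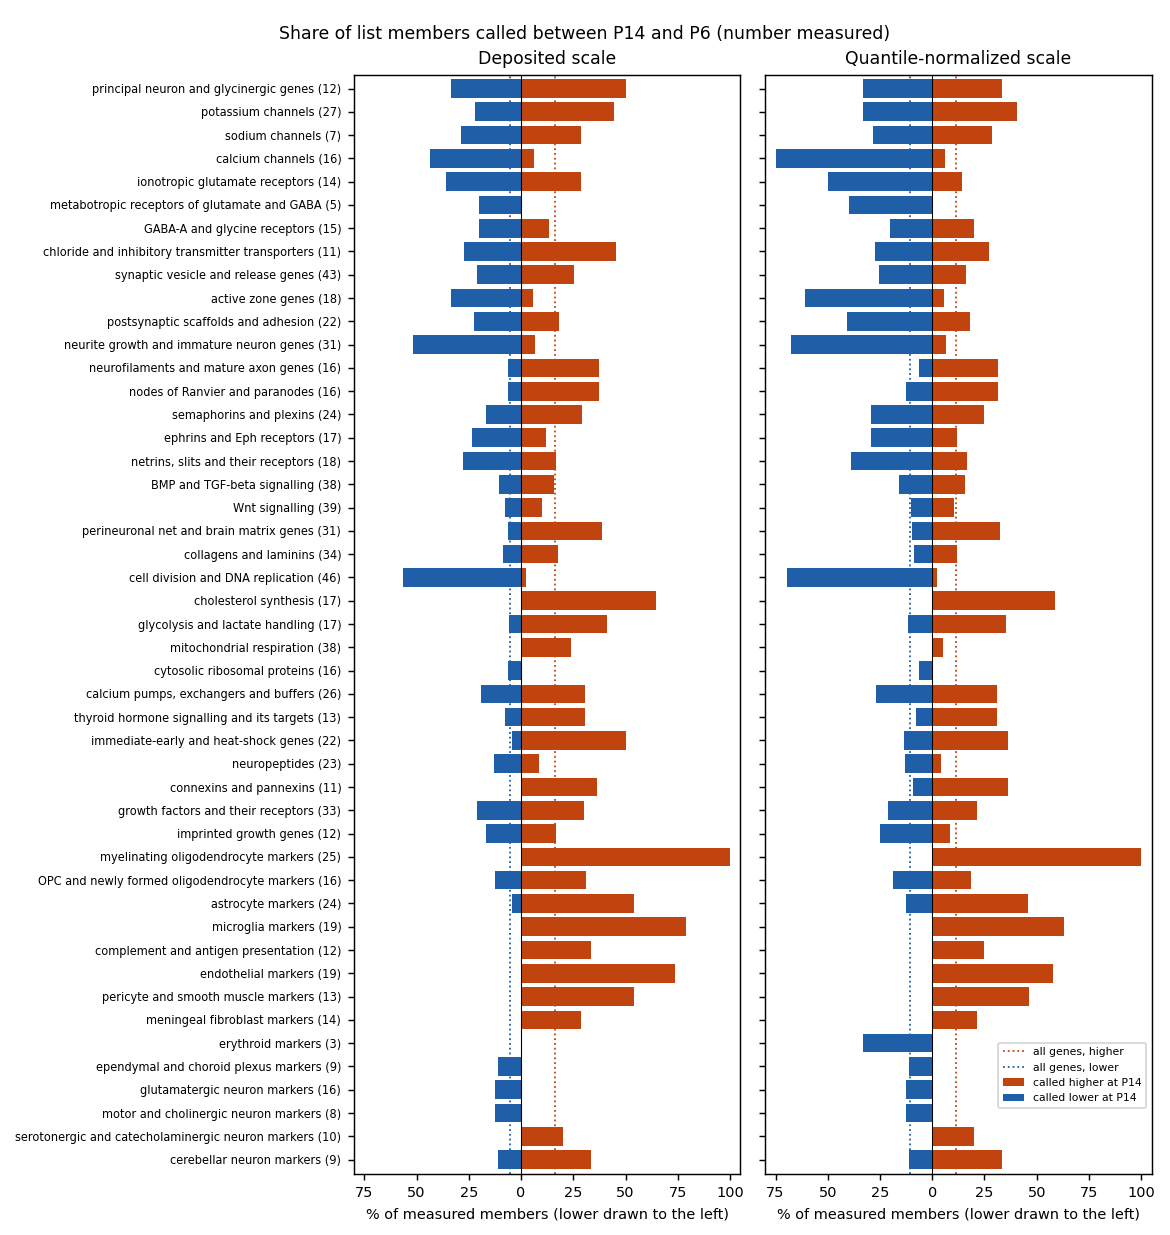
Share of the measured members of each gene list called higher at P14 (orange, to the right) and lower (blue, to the left) on the deposited and the quantile-normalized scale, with the number measured in brackets. Dotted lines mark the shares over all genes (16.3% and 5.26% deposited, 11.3% and 10.7% after quantile normalization); the markers of myelinating oligodendrocytes fill the whole width on both scales, and the cell division genes have the longest blue bars on the deposited scale.

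Genes that define the principal neurons did not move as 1 group. Of 12 measured genes of principal and glycinergic neurons, 6 were called higher and 4 lower on the deposited scale, and 4 and 4 after quantile normalization (median difference 0.43 and 0.23). Their mean level in a mouse was 8.16 to 8.58 at P14 and 7.70 to 8.25 at P6, so that the ages overlapped. Pvalb, the calcium buffer parvalbumin, had 11.53, 11.18, 11.74 and 11.44 in the P14 mice, against 10.48, 10.15, 10.65, 10.27 and 10.49 in the P6 mice, and was bright at both ages. It rose by 1.07 ± 0.21 (adjusted p = 0.00033), and Calb1, the buffer calbindin, by 0.86 ± 0.20 (adjusted p = 0.00215). Slc6a5, the glycine transporter of glycinergic terminals, and Slc32a1, which loads glycine and GABA into vesicles, were called higher on the deposited scale but not after quantile normalization, with 0.38 and 0.48. Of the transcription factors in the list, Foxp1 fell by 1.17 ± 0.12 and Esrrg by 0.65 ± 0.14. Slc6a5 and Slc32a1 were bright at both ages, with 11.23 ± 0.12 at P14 and 10.86 ± 0.23 at P6 (SD, n = 4 and 5) for Slc6a5 and 7.38 ± 0.17 at P14 and 6.90 ± 0.33 at P6 (SD, n = 4 and 5) for Slc32a1. En1, a homeobox factor required for the MNTB, differed by -0.057 and was not called.

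Subunits of the receptors for glycine and GABA moved in both directions. Glra1, the adult alpha subunit of the glycine receptor, had 9.48, 8.71, 9.40 and 9.47 in the P14 mice, against 6.56, 5.58, 5.51, 4.95 and 5.74 in the P6 mice. All P14 mice lay far above all P6 mice, with a difference of 3.60 ± 0.27 (adjusted p = 1.22e-11) and 3.43 after quantile normalization. Glra2, the alpha subunit of immature receptors, had 3.36, 3.62, 3.59 and 3.5 in the P14 mice, against 3.97, 4.17, 4.21, 4.34 and 4.45 in the P6 mice. It was already dim at P6, and its fall of 0.71 ± 0.25 (adjusted p = 0.0392) was lost with litter as a block (adjusted p = 0.0585) and without any single mouse except the P6 mouse of litter 1. Glrb, the beta subunit, differed by 0.50 and was not called. Among GABA-A receptor subunits, Gabra3 had 7.60, 7.20, 7.63 and 7.07 in the P14 mice, against 9.25, 9.23, 8.97, 8.62 and 9.01 in the P6 mice. It fell by 1.64 ± 0.15 (adjusted p = 8.41e-10), and Gabra5 by 1.29 ± 0.14. Gabra2 rose instead, with 0.93 ± 0.21 (adjusted p = 0.00151). In all, 2 of the 15 measured receptor genes were called higher and 3 lower on the deposited scale, and 3 and 3 after quantile normalization (median difference 0.024 and 0.035).

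Another list holds genes that make and carry inhibitory transmitters or set the chloride gradient. Of 11 measured, 5 were called higher and 3 lower on the deposited scale, and 3 and 3 after quantile normalization (median difference 0.37 and 0.23). Without the P14 mouse of litter 1 or the P6 mouse of litter 4, 3 were called higher. Gad2, which makes GABA, had 5.37, 4.72, 5.77 and 5.97 in the P14 mice, against 6.32, 6.91, 6.89, 6.47 and 6.89 in the P6 mice. It fell by 1.24 ± 0.20 (adjusted p = 2.36e-05), and Gad1 by 0.42 ± 0.12 with overlapping ages, a call lost without the P14 mouse of litter 2. Slc6a11, a GABA transporter of astrocytes, fell by 0.87 ± 0.15, and Slc6a9, the glial glycine transporter, rose by 1.00 ± 0.18. Slc12a2, which brings chloride into cells, had 9.96, 9.72, 9.89 and 10.02 in the P14 mice, against 8.49, 8.77, 8.39, 7.89 and 8.55 in the P6 mice, a difference of 1.48 ± 0.19 (adjusted p = 4.15e-07). Slc12a5, the neuronal exporter of chloride, had 7.17, 7.35, 7.31 and 7.09 in the P14 mice, against 7.24, 7.09, 6.85, 6.37 and 7.01 in the P6 mice. The ages overlapped, and the difference of 0.32 ± 0.20 was not called (adjusted p = 0.294).

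The machinery of transmitter release changed in both directions. The cell bodies that give rise to the calyx lie outside the nucleus. The values of release, active zone and calcium channel genes are thus RNA levels of the sampled tissue, not a measure of the calyx. Of 43 measured genes of synaptic vesicles and release, 11 were called higher and 9 lower on the deposited scale, and 7 and 11 after quantile normalization (median difference 0.12 and -0.051). Syt2, the fast calcium sensor of the mature calyx, had 8.62, 8.24, 8.71 and 8.42 in the P14 mice, against 8.49, 8.04, 7.69, 7.43 and 7.97 in the P6 mice. The ages overlapped, and its difference of 0.58 ± 0.18 (adjusted p = 0.0235) was not called after quantile normalization, where it was 0.33 (adjusted p = 0.0926), nor without the P14 mouse of litter 1 or 3 or the P6 mouse of litter 3 or 4. Syt1, by contrast, fell by more than any other gene of the list. Syt17, Rab3c and Rab3b fell by 2.72, 2.04 and 1.27. The Rab3 proteins are vesicle GTPases, and for Rab3c the levels were 6.60, 6.93, 6.93 and 6.76 in the P14 mice, against 9.26, 9.27, 8.66, 8.08 and 8.94 in the P6 mice. Vamp2, the vesicle SNARE, had 10.11, 10.13, 10.12 and 10.03 in the P14 mice, against 10.99, 10.87, 10.92, 10.78 and 11.00 in the P6 mice. The mice of each age lay close together, so that a fall of 0.81 ± 0.089 stood clear of the spread (adjusted p = 2.87e-08).

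Other release genes rose. Sypl, a relative of synaptophysin that is not confined to neurons, had 8.42, 8.29, 8.54 and 8.34 in the P14 mice, against 7.16, 6.87, 6.93, 6.47 and 7.10 in the P6 mice, a difference of 1.49 ± 0.15 (adjusted p = 5.76e-09). Dnm1, which pinches off vesicles in endocytosis, and Nsf, which takes SNARE complexes apart, rose by 0.72 ± 0.11 and 0.69 ± 0.16. Syt12 rose by 0.80 ± 0.12 above a dim P6 level. The complexins, which clamp and assist fusion, gave no call on the deposited scale. Cplx1 had 10.91, 10.98, 11.08 and 10.77 in the P14 mice, against 10.93, 10.71, 10.83, 10.57 and 10.83 in the P6 mice, a difference of 0.16 ± 0.10 (adjusted p = 0.288) that turned to -0.029 after quantile normalization. Cplx2 differed by -0.41 ± 0.17 (adjusted p = 0.0945), and by -0.58 after quantile normalization (adjusted p = 0.00386), where it was called lower, as it was on the deposited scale without the P6 mouse of litter 4.

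Vesicular glutamate transporters are made in the cell bodies of glutamatergic neurons, and those of the calyx lie outside the nucleus. Slc17a7 had 3.85, 5.66, 3.89 and 3.99 in the P14 mice, against 3.78, 3.86, 3.87, 3.91 and 3.96 in the P6 mice, and Slc17a6 had 4.72, 5.23, 4.28 and 3.51 in the P14 mice, against 3.82, 3.48, 4.35, 3.92 and 3.63 in the P6 mice. With all mice neither was called (adjusted p = 0.125 for Slc17a7 and adjusted p = 0.107 for Slc17a6), but Slc17a7 was called higher without the P14 mouse of litter 1 and Slc17a6 without that of litter 5. The P14 mouse of litter 2 stood far above the others in Slc17a7, and it was also the highest in Zic1, a transcription factor of cerebellar granule cells and the cochlear nucleus, picked out here after its values were seen. Zic1 had 4.27, 5.27, 4.47 and 4.16 in the P14 mice, against 4.18, 4.36, 4.41, 4.48 and 4.06 in the P6 mice.

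At the active zone the falls prevailed. Of 18 measured genes, 1 was called higher and 6 lower on the deposited scale, and 1 and 11 after quantile normalization, and the median difference was -0.30 and -0.54. Ppfia2, a liprin scaffold, had 5.70, 6.21, 5.95 and 5.76 in the P14 mice, against 7.64, 7.91, 7.53, 7.41 and 7.74 in the P6 mice. It fell by 1.74 ± 0.17 (adjusted p = 1.97e-09), and Erc1 and Erc2, scaffolds that bind the calcium channel machinery, by 1.37 ± 0.28 and 0.96 ± 0.14. Ptprd, an adhesion phosphatase, rose by 1.51 ± 0.14 (adjusted p = 1.26e-09). Bsn and Unc13a, which organise and prime vesicles, differed by -0.12 and 0.23 and were not called on either scale.

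Subunits of glutamate receptors moved in both directions. Of 14 measured ionotropic receptor genes, 4 were called higher and 5 lower on the deposited scale, and 2 and 7 after quantile normalization (median difference -0.26 and -0.31). Gria1, an AMPA receptor subunit, had 7.93, 8.30, 8.11 and 7.40 in the P14 mice, against 9.98, 10.01, 9.68, 9.49 and 9.96 in the P6 mice. It fell by 1.89 ± 0.13 (adjusted p = 3.43e-12). Gria3, another AMPA receptor subunit, had 9.69, 9.54, 9.99 and 9.75 in the P14 mice, against 8.67, 8.75, 8.74, 7.61 and 8.61 in the P6 mice, and rose by 1.27 ± 0.22 (adjusted p = 5.55e-05). Gria4, the subunit of fast AMPA receptors, differed by -0.033 and was not called. Among NMDA receptor subunits, Grin2b, the early one, fell by 1.6 ± 0.24 (adjusted p = 6.79e-06), and Grin2a, the later one, fell by 1.33 ± 0.25 (adjusted p = 0.000197). For Grin2a the levels were 5.58, 5.93, 5.59 and 5.61 in the P14 mice, against 7.19, 7.46, 6.91, 6.10 and 7.37 in the P6 mice. Grin2c, a subunit of NMDA receptors with weaker magnesium block, rose by 0.96 ± 0.096 (adjusted p = 5.13e-09). Of 5 measured metabotropic receptors of glutamate and GABA, Grm3 was called lower, with 6.99, 6.12, 6.59 and 6.72 in the P14 mice, against 8.92, 9.22, 8.63, 7.77 and 9.12 in the P6 mice, and Grm7 was also lower after quantile normalization (median difference of the 5 -0.17 and -0.28).

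Scaffolds and adhesion proteins behind these receptors were divided. Of 22 measured, 4 were called higher and 5 lower on the deposited scale, and 4 and 9 after quantile normalization (median difference -0.14 and -0.36). The lower count was 3 without the P14 mouse of litter 5 or the P6 mouse of litter 1, and 2 without the P6 mouse of litter 2 or of litter 5. Dlgap2 rose by 1.26 ± 0.13 and Homer1 by 0.90 ± 0.21, whereas Homer2 fell by 0.72 ± 0.17 and Dlg3 by 0.77 ± 0.20. In Homer1 the P14 mouse of litter 2 had 7.33, within the P6 range of 6.70 to 7.50. Gphn, which anchors glycine and GABA-A receptors, fell by 0.50 ± 0.17, a call lost without the P14 mouse of litter 2 or the P6 mouse of litter 1, 2 or 5. Dlg4, the main scaffold of excitatory synapses, differed by -0.11 and was not called.

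**Figure D4:**
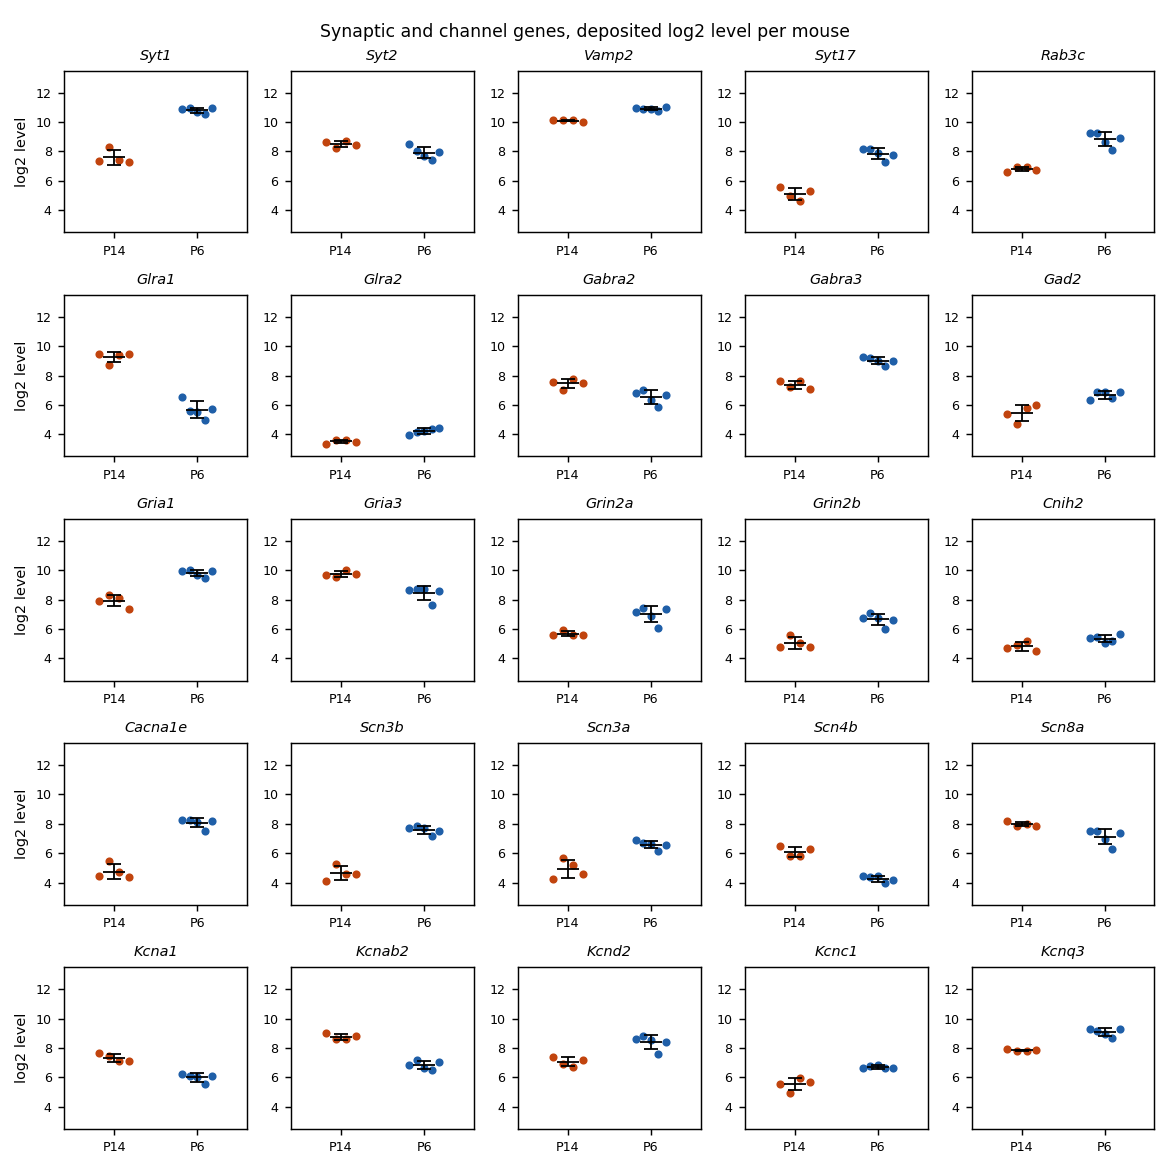
Deposited log2 level in each P14 mouse (orange) and P6 mouse (blue), with mean and SD, for 25 genes of release, receptors and channels. The P14 mice lie above all P6 mice for Glra1, Gabra2, Gria3, Scn4b, Scn8a, Kcna1 and Kcnab2, and below all of them for Syt1, Vamp2, Syt17, Rab3c, Gabra3, Gria1, Cacna1e, Scn3b, Scn3a, Kcnd2, Kcnc1 and Kcnq3 among others, while Syt2 and Cnih2 overlap.

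Sodium channel subunits moved in opposite directions. Scn4b, a beta subunit of fast-firing neurons, had 6.49, 5.79, 5.81 and 6.3 in the P14 mice, against 4.42, 4.35, 4.43, 3.95 and 4.15 in the P6 mice, and rose by 1.84 ± 0.15 (adjusted p = 8.83e-11). Scn8a had 8.16, 7.85, 8.01 and 7.85 in the P14 mice, against 7.49, 7.52, 6.98, 6.26 and 7.36 in the P6 mice. Opposite to these, Scn3a, the pore subunit of the immature brain, had 4.28, 5.70, 5.18 and 4.58 in the P14 mice, against 6.89, 6.70, 6.60, 6.17 and 6.59 in the P6 mice, and fell by 1.66 ± 0.25 (adjusted p = 9.3e-06), together with Scn3b. Scn1a had 10.39, 9.76, 10.57 and 10.55 in the P14 mice, against 10.25, 10.39, 10.19, 10.11 and 10.56 in the P6 mice. Its difference of 0.016 ± 0.16 was not called (adjusted p = 0.962), and its sign changed with the scaling. With Scn2b and Nalcn not called either, 2 of 7 measured genes were higher and 2 lower on both scales (median difference 0.016 and -0.21).

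Potassium channels included some of the larger rises among channels. Of 27 measured, 12 were called higher and 6 lower on the deposited scale, and 11 and 9 after quantile normalization (median difference 0.19 and 0.019). Kcna1, which limits repeated firing of principal neurons, rose by 1.34 ± 0.16 (adjusted p = 1.42e-07), and its beta subunits Kcnab2 and Kcnab1 by 1.91 ± 0.27 and 1.43 ± 0.16. Kcna2 had 8.73, 7.67, 8.20 and 8.51 in the P14 mice, against 8.41, 8.21, 8.0, 7.65 and 8.17 in the P6 mice. Its ages overlapped and it was not called (adjusted p = 0.614), with 0.19 ± 0.21 on the deposited scale and -0.037 after quantile normalization. Kcnip4, a subunit of A-type channels, had 8.18, 6.64, 7.80 and 7.77 in the P14 mice, against 5.75, 5.84, 5.41, 5.33 and 5.19 in the P6 mice, whereas Kcnip1, of the same family, had 5.78, 6.03, 6.01 and 5.18 in the P14 mice, against 8.25, 8.39, 8.0, 7.85 and 8.47 in the P6 mice. Kcnip4 rose by 2.10 ± 0.24 and Kcnip1 fell by 2.44 ± 0.16. Kcnd2, a pore subunit of these channels, fell by 1.33 ± 0.21. Kcnc1, the Kv3.1 channel that shortens action potentials, had 5.57, 4.95, 5.97 and 5.70 in the P14 mice, against 6.61, 6.80, 6.87, 6.63 and 6.67 in the P6 mice, and fell by 1.16 ± 0.20 (adjusted p = 3.68e-05). Hcn2, a subunit of the hyperpolarization-activated current, rose by 1.18.

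The calls among calcium channel genes were mostly falls. Of 16 measured, 1 was called higher and 7 lower on the deposited scale, and 1 and 12 after quantile normalization. The median difference was -0.37 on the deposited scale and -0.60 after quantile normalization. After Cacna1e came the low-voltage activated T-type channels Cacna1g and Cacna1h. Cacna1g had 4.37, 4.62, 4.46 and 4.56 in the P14 mice, against 6.02, 5.86, 5.86, 5.56 and 5.92 in the P6 mice, and fell by 1.34 ± 0.13 (adjusted p = 1.2e-09). Cacna1h fell by 1.09 ± 0.11. Cacna1b, the N-type channel, fell by 0.60, while Cacna1a, the P/Q-type channel that drives release at the mature calyx, differed by -0.16 and was called lower after quantile normalization but not on the deposited scale. Cacnb4, a cytoplasmic beta subunit, had 10.12, 10.06, 10.05 and 9.98 in the P14 mice, against 9.55, 9.57, 9.28, 8.86 and 9.49 in the P6 mice, and rose by 0.70 ± 0.13 (adjusted p = 0.000116).

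Related proteins of calcium handling moved in opposite directions. Of 26 measured pumps, exchangers and buffers, 8 were called higher and 5 lower on the deposited scale, and 8 and 7 after quantile normalization (median difference -0.051 and -0.18). Slc24a2, a potassium-dependent sodium-calcium exchanger, had 7.79, 7.92, 8.03 and 8.02 in the P14 mice, against 6.60, 6.54, 6.39, 5.87 and 6.35 in the P6 mice, and rose by 1.59 ± 0.14 (adjusted p = 6.48e-10). Its relative Slc24a3 fell by 1.18 ± 0.17. Slc8a1 has 2 probe sets, which fell by 1.43 and 2.34. Cabp7, a calmodulin relative, had 5.79, 4.85, 5.04 and 5.54 in the P14 mice, against 4.15, 3.95, 4.07, 3.76 and 3.80 in the P6 mice. Ncald, a neuronal calcium sensor, fell by 1.54 ± 0.17, and Camk4, a calmodulin-dependent kinase, by 1.14 ± 0.22 with 1 P6 mouse, that of litter 4, inside the P14 range.

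Nearly all calls among genes of growing neurites were falls. Of 31 measured genes of neurite growth and immature neurons, 2 were called higher and 16 lower on the deposited scale, and 2 and 21 after quantile normalization. The median difference was -0.39 and -0.57. L1cam, an adhesion molecule of growing axons, had 5.17, 5.71, 5.30 and 5.14 in the P14 mice, against 7.83, 8.13, 7.46, 6.88 and 7.85 in the P6 mice. It fell by 2.3 ± 0.22 (adjusted p = 1.32e-09). Gap43, of growth cones, had 7.34, 7.91, 7.68 and 7.63 in the P14 mice, against 9.52, 9.61, 9.14, 9.07 and 9.41 in the P6 mice, and fell by 1.71 ± 0.11. Dcx, a microtubule protein of young neurons, had 6.26, 6.16, 6.34 and 6.60 in the P14 mice, against 8.17, 8.26, 8.19, 7.45 and 8.03 in the P6 mice, and fell by 1.68 ± 0.16. Dpysl3, also of growth cones, fell by 1.61 ± 0.18. Stmn4 and Fez1 rose by 1.29 ± 0.20 and 0.86 ± 0.14.

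Among genes of mature axons most calls were rises. Of 16 measured, 6 were called higher and 1 lower on the deposited scale, and 5 and 1 after quantile normalization (median difference 0.31 and 0.11). Nefh, the heavy neurofilament, had 9.74, 9.62, 9.75 and 9.70 in the P14 mice, against 8.92, 8.74, 8.60, 8.47 and 8.81 in the P6 mice, and rose by 1.00 ± 0.14 (adjusted p = 1.61e-06). The light and medium chains rose less, Nefl by 0.67 ± 0.12 and Nefm by 0.36 ± 0.078. Prph, an intermediate filament of motor and sensory neurons, had 4.52, 4.77, 4.63 and 3.93 in the P14 mice, against 5.42, 5.31, 5.16, 5.46 and 5.44 in the P6 mice, and fell by 0.90 ± 0.14.

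Axon guidance families each held changes in both directions. Among 24 semaphorins and plexins, 7 were called higher and 4 lower on the deposited scale, and 6 and 7 after quantile normalization (median difference 0.11 and -0.11). Sema3a, a repellent, had 5.06, 5.42, 4.83 and 5.38 in the P14 mice, against 7.04, 7.35, 7.02, 6.90 and 7.33 in the P6 mice, and fell by 1.95 ± 0.18 (adjusted p = 1.42e-09). Sema4d, which oligodendrocytes also make, rose by 1.06 ± 0.14. Among 17 ephrins and Eph receptors, 2 were called higher and 4 lower on the deposited scale, and 2 and 5 after quantile normalization (median difference -0.067 and -0.13). Efnb3, a ligand of myelin and the midline, had 7.0, 7.06, 7.02 and 6.99 in the P14 mice, against 5.81, 5.82, 5.79, 5.15 and 5.69 in the P6 mice, and rose by 1.37 ± 0.16. Epha5 fell by 1.14 ± 0.15, and Efnb2 by 0.67 ± 0.19. Among 18 netrins, slits and their receptors, 3 were called higher and 5 lower on the deposited scale, and 3 and 7 after quantile normalization (median difference -0.14 and -0.18). The lower count was 3 without the P14 mouse of litter 2 or of litter 3 or the P6 mouse of litter 1 or of litter 5. Dcc, the netrin receptor, had 5.75, 6.01, 5.93 and 5.64 in the P14 mice, against 8.40, 8.44, 7.97, 7.56 and 8.29 in the P6 mice, and fell by 2.3 ± 0.15 (adjusted p = 2.82e-13). Robo2, a slit receptor, fell by 2.27 ± 0.15.

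Genes of the matrix around neurons gave mostly rises. Of 31 measured genes of perineuronal nets and brain matrix, 12 were called higher and 2 lower on the deposited scale, and 10 and 3 after quantile normalization (median difference 0.32 and 0.093). Adamts4, a protease that cuts aggrecan-type proteoglycans, had 6.69, 6.74, 6.38 and 6.67 in the P14 mice, against 5.31, 5.33, 4.94, 4.61 and 5.25 in the P6 mice, and rose by 1.53 ± 0.11 (adjusted p = 7.46e-12). Spock1 and Spock3, secreted proteoglycans, rose by 1.44 ± 0.15 and 1.14 ± 0.24. Hapln4, a link protein of perineuronal nets, differed by 0.70 and Acan, their core proteoglycan, by 0.56, the second called on the deposited scale but not after quantile normalization. Hapln1, another link protein, fell by 0.90 ± 0.07 (adjusted p = 2.22e-11), and Cspg5 by 0.87 ± 0.081. Of 34 measured collagens and laminins, 6 were called higher and 3 lower on the deposited scale, and 4 and 3 after quantile normalization (median difference 0.045 and -0.0019). Without the P14 mouse of litter 1 the counts were 3 and 1. Lama2, of the vascular basement membrane, rose by 0.97 ± 0.068.

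Many genes of cell division fell. Of 46 measured, 26 were called lower on the deposited scale and 32 after quantile normalization. The median difference was -0.56 and -0.68. Mki67, the proliferation marker, had 6.91, 6.98, 6.76 and 6.39 in the P14 mice, against 9.08, 8.72, 8.75, 7.88 and 8.87 in the P6 mice. It fell by 1.90 ± 0.19 (adjusted p = 5.13e-09). Top2a, which untangles DNA before division, had 4.92, 5.30, 5.18 and 4.61 in the P14 mice, against 6.94, 6.84, 6.55, 5.97 and 7.04 in the P6 mice, and fell by 1.67 ± 0.21. Prc1, of the spindle midzone, and Mcm6, of the replicative helicase, fell by 1.39 and 1.35. Ccnd3, a cyclin, was the 1 gene called higher, by 0.46 ± 0.13 with overlapping ages, and was not called without the P14 mouse of litter 1.

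The window of Top2a is shown because its letters recur in the list. CCAAT was in 27 of the 36 cell division genes that have a window (75%), against 41.1% of all genes. TTTGAA, which is part of the cell cycle homology region of many such promoters, was in 18 of the 36 (50%), against 20.2% of all genes. Among the myelin markers CCAAT was in 8 of 21 (38.1%). Both strands were read, and the matches are in capitals, with TTCAAA for TTTGAA and ATTGG for CCAAT on the other strand. The window of Top2a lies at chr11:99024140-99024439, minus strand.
Top2a: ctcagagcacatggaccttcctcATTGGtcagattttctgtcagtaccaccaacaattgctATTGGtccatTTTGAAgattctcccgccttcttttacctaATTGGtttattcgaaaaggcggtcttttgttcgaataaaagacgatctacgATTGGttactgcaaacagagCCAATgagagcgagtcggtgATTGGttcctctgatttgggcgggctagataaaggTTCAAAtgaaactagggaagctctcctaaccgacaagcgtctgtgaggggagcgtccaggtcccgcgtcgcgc

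Growth factors and their receptors moved in both directions. Of 33 measured, 10 were called higher and 7 lower on the deposited scale, and 7 and 7 after quantile normalization (median difference 0.029 and -0.074). Fgf1, an acidic fibroblast growth factor, had 7.36, 6.87, 7.59 and 7.09 in the P14 mice, against 5.09, 4.88, 5.22, 4.55 and 4.72 in the P6 mice, and rose by 2.33 ± 0.16 (adjusted p = 1.14e-12). Gfra1, the receptor of GDNF, rose by 1.99 ± 0.17. Igfbp3, which binds insulin-like growth factors, had 3.94, 4.11, 4.2 and 3.95 in the P14 mice, against 5.67, 5.47, 5.56, 5.99 and 5.48 in the P6 mice, and fell by 1.59 ± 0.18. Fgf13 and Fgf14, which bind sodium channels within the cell, fell by 1.36 and 0.72. Bdnf, a neurotrophin, fell by 0.54 ± 0.081 at dim levels of 3.87 ± 0.078 at P14 and 4.41 ± 0.12 at P6 (SD, n = 4 and 5). Of 12 measured imprinted growth genes, 2 were called higher and 2 lower on the deposited scale, and 1 and 3 after quantile normalization (median difference -0.059 and -0.17). Without the P14 mouse of litter 1 each count was 1, and the lower count was also 1 without the P14 mouse of litter 2, 3 or 5 or the P6 mouse of litter 3 and 0 without that of litter 1. Igf2bp3, an RNA-binding protein, fell by 0.63 ± 0.19, and was not called without the P6 mouse of litter 1.

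BMP signalling is known to shape the calyx of Held. Of 38 measured BMP and TGF-beta genes, 6 were called higher and 4 lower on the deposited scale, and 6 and 6 after quantile normalization, with a median difference of -0.016 and -0.076. Id3, a target of BMP signals, had 6.39, 5.89, 7.08 and 6.48 in the P14 mice, against 5.13, 4.73, 5.22, 4.74 and 5.36 in the P6 mice, and rose by 1.43 ± 0.22 (adjusted p = 1.36e-05). Smad9, a transducer, and Smad7, an inhibitor, rose by 1.09 ± 0.13 and 0.92 ± 0.10. Acvr2a, a receptor, fell by 0.85 ± 0.16 (adjusted p = 0.000228). The BMP receptors Bmpr1a, Bmpr1b and Bmpr2 differed by -0.14, 0.21 and 0.12 and were not called. Of 39 measured Wnt genes, 4 were called higher and 3 lower on the deposited scale, and 4 and 4 after quantile normalization (median difference -0.0004 and -0.01), with 1 lower without the P14 mouse of litter 1 or 3 or the P6 mouse of litter 3. Nkd1, an inhibitor of the pathway, had 6.70, 6.71, 6.53 and 6.26 in the P14 mice, against 5.30, 5.12, 5.17, 4.77 and 4.70 in the P6 mice, and rose by 1.54 ± 0.19.

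Thyroid hormone, which the development of hearing requires, has a regulated supply in the brain. Dio2, which makes the active hormone, had 6.59, 6.37, 6.56 and 6.38 in the P14 mice, against 4.37, 4.64, 4.57, 4.74 and 4.51 in the P6 mice. It rose by 1.91 ± 0.084 (adjusted p = 3.88e-17), with no overlap between the ages. The hormone transporter Slco1c1 rose by 0.75 ± 0.13, the receptor Thrb by 0.56 ± 0.15, and the corepressor Hr by 0.42 ± 0.067. Of 13 measured genes of the list 4 were higher and 1 lower on both scales (median difference 0.06 and 0.042). The lower one, Crym, fell by 0.39 ± 0.12 and was not called without the P14 mouse of litter 2 or the P6 mouse of litter 1.

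Of 22 measured immediate-early and heat-shock genes, 11 were called higher and 1 lower on the deposited scale, and 8 and 3 after quantile normalization (median difference 0.36 and 0.32). Without the P6 mouse of litter 4, 7 were higher and 2 lower, and 2 were lower also without the P14 mouse of litter 3 or 5 and with litter as a block. Genes of this kind can respond to the handling of tissue, and the part of handling in these values was not tested. Btg2, an antiproliferative early gene, had 6.76, 5.06, 5.99 and 6.68 in the P14 mice, against 4.68, 4.36, 5.32, 5.36 and 4.97 in the P6 mice, and the ages overlapped. Dusp1, a phosphatase, had 7.19, 7.03, 7.65 and 7.47 in the P14 mice, against 6.42, 5.98, 6.39, 6.38 and 6.54 in the P6 mice, and rose by 1.00 ± 0.23. Fos differed by 0.46 and was called on the deposited scale but not after quantile normalization, and Npas4 and Arc, which follow neuronal activity, differed by 0.13 and 0.30 and were not called.

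Of 23 measured neuropeptide genes, 2 were called higher and 3 lower on the deposited scale, and 1 and 3 after quantile normalization (median difference -0.036 and -0.09). These counts hung on single mice: the higher count was 4 without the P14 mouse of litter 2, 0 without the P14 mouse of litter 5 or the P6 mouse of litter 2, and 1 without the P6 mouse of litter 3 or 4. The lower count was 0 without the P14 mouse of litter 1, and 1 without the P14 mouse of litter 3 or 5 or the P6 mouse of litter 3 or 4. Penk, the enkephalin precursor, had 5.60, 6.71, 6.53 and 6.76 in the P14 mice, against 7.21, 7.27, 7.30, 7.36 and 7.07 in the P6 mice, and fell by 0.84 ± 0.22, a call lost without the P14 mouse of litter 1. Sst, somatostatin, fell by 1.13 ± 0.39, a call that held only without the P14 mouse of litter 2 or the P6 mouse of litter 1 or 2 among the 9 fits that leave out 1 mouse.

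Of 17 measured genes of glycolysis and lactate handling, 7 were called higher and 1 lower on the deposited scale, and 6 and 2 after quantile normalization (median difference 0.32 and 0.17), with 2 lower also without the P6 mouse of litter 1 or 2. Slc2a1 had 9.16, 8.80, 8.57 and 8.70 in the P14 mice, against 7.48, 7.58, 7.03, 6.71 and 7.48 in the P6 mice. Slc16a1, a lactate carrier of vessels and oligodendrocytes, had 8.34, 7.50, 7.99 and 8.10 in the P14 mice, against 6.95, 7.33, 7.21, 5.78 and 6.58 in the P6 mice, and rose by 1.21 ± 0.26 (adjusted p = 0.000902). Aldoc, the brain aldolase, rose by 0.86 ± 0.097, and Pfkp, a phosphofructokinase, fell by 0.45 ± 0.10. The neuronal glucose carrier Slc2a3 differed by -0.052 and was not called.

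Genes of mitochondrial respiration depended on scaling and on single mice. Of 38 measured, 9 were called higher on the deposited scale and 2 after quantile normalization, with 15 higher with litter as a block. Without the P14 mouse of litter 1, 3 or 5 the higher count was 3, 4 and 5, and without the P6 mouse of litter 2 or of litter 4 it was 4. The median difference was 0.27 and 0.072. Ndufa2, of complex I, and Sdha, of complex II, were called on both scales. For Sdha the levels were 10.59, 10.34, 10.36 and 10.32 in the P14 mice, against 9.86, 9.85, 9.87, 9.54 and 9.75 in the P6 mice, a difference of 0.63 ± 0.12. Of 16 measured ribosomal protein genes, 1 was called lower on both scales (median difference -0.031 and -0.12). That gene, Rplp0, had 5.83, 7.05, 8.78 and 7.22 in the P14 mice, against 8.67, 7.36, 8.65, 9.13 and 8.52 in the P6 mice, the widest spread among the P14 mice of any gene named here, and it was not called without the P14 mouse of litter 1, 2 or 5 or the P6 mouse of litter 1, 3, 4 or 5.

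Markers of other neurons were mostly not called. Of 16 measured glutamatergic markers, limma called 0 higher (3 at an unadjusted p under 0.05) and 2 lower on both scales, with a median difference of 0.03 and 0.0072. The higher count was 1 without the P14 mouse of litter 1 or 5, and the lower count was 1 without the P14 mouse of litter 1, 2 or 5 or the P6 mouse of litter 1, 3 or 5. Of 8 measured motor and cholinergic markers, Prph was called lower (median difference 0.025 and 0.018), with 2 lower without the P6 mouse of litter 4 or of litter 5. The mean level of that list was 3.80 to 3.96 at P14 and 3.94 to 4.04 at P6. Chat, which makes acetylcholine, differed by 0.029. Of 10 measured serotonergic and catecholaminergic markers, Ddc and Maob, both enzymes found also in other cells, were called higher (median difference of the list 0.079 and 0.063), while the defining genes Tph2, Slc6a4 and Th were not, with differences of -0.11, -0.29 and 0.04. Of 9 measured cerebellar markers, 3 were called higher and 1 lower on each scale (median difference 0.21 and 0.19), with 0 lower without the P14 mouse of litter 1, 3 or 5 or the P6 mouse of litter 1, 2, 3 or 5. Calb1, which is also in the list of principal neuron genes, and Cbln3 were higher on both scales. Pcp2 was higher on the deposited scale alone and Gabra6 after quantile normalization alone. Cbln3, of granule cells, had 5.39, 5.21, 4.82 and 5.32 in the P14 mice, against 4.29, 4.49, 4.44, 4.2 and 4.30 in the P6 mice. Car8, of Purkinje cells, fell by 0.66 ± 0.24 with overlapping ages. The part that RNA of neighbouring regions had in these differences was not tested.

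Changes between P14 and P6 were set beside those among the earlier ages. An F test across the mice of P0 to P6 called 1498 probe sets (8.98%) on the deposited scale, and 91% of all probe sets were not called by it. Of the 1816 rises between P6 and P14, 1452 (80.0%) were not called by it, and of the 850 falls, 547 (64.4%) were not. Both shares are below that over all probe sets. A missed call does not show that a gene was flat. All P14 mice lay above all 29 earlier mice in 1376 probe sets (8.25%) and below all of them in 459 (2.75%), and 1181 of the rises and 424 of the falls were among these. Opalin averaged 3.62 ± 0.05 at P0, 3.72 ± 0.14 at P4, 3.80 ± 0.21 at P6 and 8.92 ± 0.34 at P14. Ndrg1, a protein whose loss in humans causes a demyelinating neuropathy, averaged 4.43 ± 0.25 at P0, 4.27 ± 0.14 at P6 and 7.79 ± 0.19 at P14. Klhl4, a kelch-domain protein, had 7.83, 6.93, 7.23 and 8.09 in the P14 mice, against 4.59, 4.85, 4.46, 4.17 and 4.17 in the P6 mice, a rise of 3.07 ± 0.20 (adjusted p = 6.65e-13).

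Among the falls of genes not called earlier were bright ones. Syt1 averaged 11.02 ± 0.11 at P0, 10.99 ± 0.18 at P4, 10.81 ± 0.17 at P6 and 7.59 ± 0.49 at P14. Rgs8 averaged 8.12 ± 0.26 at P0, 8.34 ± 0.48 at P6 and 5.40 ± 0.25 at P14. Crabp1 had 4.52, 4.52, 5.53 and 5.41 in the P14 mice, against 7.37, 7.22, 7.55, 8.04 and 7.36 in the P6 mice, and fell by 2.51 ± 0.22 (adjusted p = 2.26e-10). Chrna5 had 3.42, 3.76, 3.32 and 3.30 in the P14 mice, against 6.05, 6.43, 6.39, 5.45 and 6.12 in the P6 mice, and fell by 2.64 ± 0.31. Other genes had already moved in the early days. Ermn had an adjusted p of 1.57e-18 in the F test across P0 to P6, Pvalb 7.13e-17, Calb1 8.5e-18 and Dcx 1.67e-13. Calb1 averaged 4.76 ± 0.43 at P0, 9.99 ± 0.29 at P6 and 10.85 ± 0.18 at P14. The study has no mice between P6 and P14, so the day of each change within this interval was not measured.

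**Figure D5:**
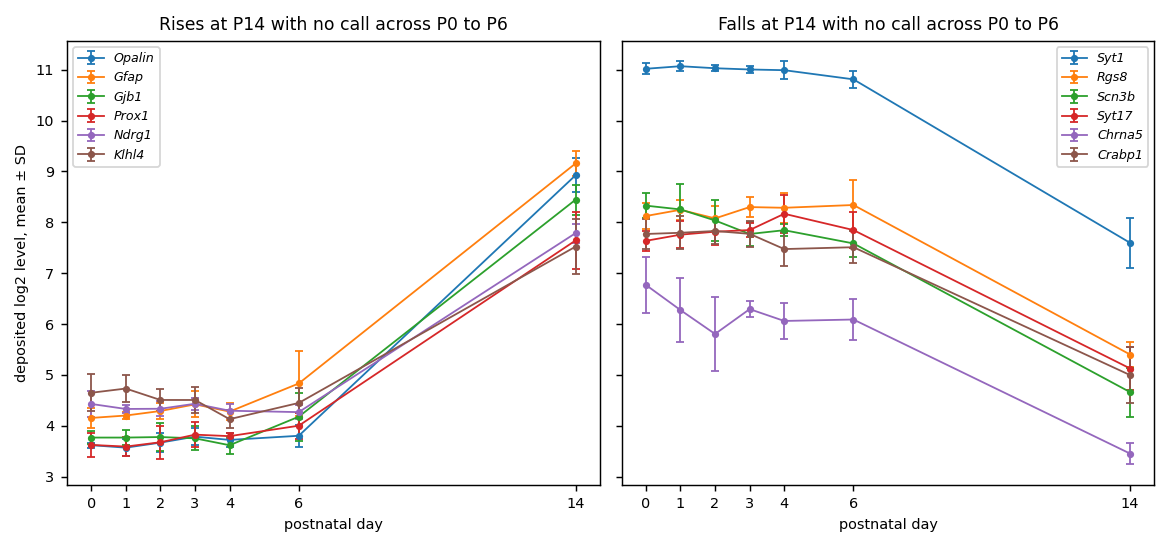
Mean deposited log2 level with SD at each of the 7 ages, P0 to P14 (4 or 5 mice an age), for the 6 largest rises (left) and the 6 largest falls (right) between P6 and P14 among genes not called by the F test across P0 to P6. The genes were chosen for large changes at P14 without a call across P0 to P6, so the course of the lines follows from the choice. At P14 each of the 12 genes lies outside the range of all 29 earlier mice. Over all probe sets, 8.25% lay above that range in all P14 mice and 2.75% below it.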

How the data were processed

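RNA of 33 MNTB samples, each from 1 mouse, was measured on exon arrays. Per the labels' protocols, RNA with a RIN of at least 5.0 was amplified with WT-Ovation Pico, converted with its Exon Module and labelled with biotin. The authors deposited log2 values, made with RMA in Partek 6.3 on mm9, per the submitters' processing notes, and their settings are not stated there. Of 16686 probe sets, 14993 carried 1 gene symbol, 1019 several and 674 none. Of those with 1 symbol, 14939 were matched by Entrez number and given the RefSeq symbol on GRCm38.p6, whether or not it differed. A gene with several probe sets (135 genes) was represented in lists by the brightest. In 9 of them at least 1 probe set was called and the differences of the gene's probe sets had both signs, called or not.

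limma 3.58.1 in R 4.3.3 fitted the means of the 7 ages to all 33 arrays, and P14 minus P6 was tested on both sides. Calls have a Benjamini-Hochberg adjusted p under 0.05, taken over the whole table. The same fit was run on quantile-normalized values, and an F test compared the ages P0 to P6. Replicates are separate mice, and their number limits the precision. Tested on simulated data of the P14 against P6 comparison over 16686 probe sets, the fit recovered 84% of changes of 1 log2 unit and 49% of changes of 0.5, with 13 false calls. In the simulation 100 probe sets were changed by each size, with independent noise and no difference in brightness between arrays. The real comparison called 20.9% of probe sets on the deposited scale, so these rates need not hold for it.

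Members and lists were chosen with earlier results of these data known. Named genes are the 12 largest changes each way, up to 4 largest called each way in each list, the 6 largest late changes each way and a fixed set of synaptic, channel, axonal and thyroid genes. The 12 each way were taken among genes called on both scales whose P14 and P6 mice did not overlap. The late changes were taken among genes called on both scales but not by the F test across P0 to P6. Predicted and unnamed genes were left out of both. Other list members named, called or not, and the motifs were chosen after their values were seen. The litter number was used as a block in an alternative fit, since the labels name the litter, though not whether a number is shared between ages. Deviations from the age means were correlated between the P14 and P6 mice of litters 1, 2, 3 and 5. The r was 0.18, -0.12, 0.049 and -0.0004, against a mean of -0.011, -0.018, 0.017 and -0.0011 with the P6 mice of other litters. So few correlations cannot settle whether the mice are paired by litter. Other alternatives were centring arrays on their medians, leaving out dim probe sets, fitting the 9 arrays alone, array weights, a variance trend, each mouse left out, the median of a gene's probe sets, and, chosen after seeing the data, both arrays of lowest weight left out.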

Additional observations from a re-analysis of the deposited data

Results flagged for a closer look

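Among the 468 groups formed by the 234 named genes and both ages, 41 held a mouse whose gap to its nearest neighbour exceeded Dixon's 95% critical value for that number of mice. Chance flags about 1 in 20 groups and the genes are not independent of each other. The P14 mouse of litter 1 lay apart in 2 groups, above the others of its age in Sdha at 10.59 and Bdnf at 3.99. The P14 mouse of litter 2 lay apart in 9 groups, above the others of its age in Syt1 at 8.32, Grin2a at 5.93, Slc17a7 at 5.66, Sema5b at 5.07 and Robo2 at 6.41, and below them in Glra1 at 8.71, Homer1 at 7.33, S100b at 10.28 and Maob at 4.99. The P14 mouse of litter 3 lay apart in 1 group, above the others of its age in Slc8a1 at 5.21. The P14 mouse of litter 5 lay apart in 4 groups, above the others of its age in Fgf10 at 4.85, and below them in Slc6a11 at 8.70, Acta2 at 4.14 and Car8 at 6.56. The P6 mouse of litter 1 lay apart in 2 groups, above the others of its age in Ermn at 7.46 and Spock1 at 4.99. The P6 mouse of litter 2 lay apart in 2 groups, above the others of its age in Sema3d at 5.74, and below them in Dusp1 at 5.98. The P6 mouse of litter 3 lay apart in 1 group, above the others of its age in H2-Ab1 at 4.68. The P6 mouse of litter 4 lay apart in 20 groups, above the others of its age in Robo4 at 4.32, and below them in Cacna1e at 7.51, Dcx at 7.45, Foxp1 at 7.94, Esrrg at 9.29, Gria3 at 7.61, Slc6a9 at 7.75, Syt12 at 4.66, Dlg2 at 7.06, Thy1 at 9.21, Sema7a at 5.56, Efnb3 at 5.15, Efnb2 at 6.89, Robo2 at 7.73, Camk4 at 6.53, Hsph1 at 8.20, Fgfr2 at 5.68, Sox10 at 5.23, Sox6 at 6.42 and Aldh1l1 at 6.26. The P6 mouse of litter 4, which lay apart most often, is also the mouse with the lowest array weight and the lowest upper quartile, and the counts without it stand beside each list whose count it moved by over 1.5 times.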

How the results depend on the processing

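The number of probe sets lower at P14 depended on the scaling: 858 on the deposited scale, 1740 after quantile normalization and 1441 with arrays centred, while 2627, 1827 and 1977 were higher. The share of calls that were higher was 75.4%, 51.2% and 57.8%. Without both arrays of lowest weight, a choice made after seeing the data, the counts were 2069 higher and 787 lower (72.4% higher) on the deposited scale, and 1480 and 1496 (49.7%) after quantile normalization. A size of at least 1 log2 unit left 615 and 202. The other fits gave 1926 and 704 without dim probe sets, 2251 and 758 with the 9 arrays alone, 2950 and 1192 with array weights and 2579 and 851 with a variance trend. Leaving out each mouse in turn gave 2083 to 2687 higher, 699 to 937 lower and a share of 69.0% to 78.3%. With litter as a block for pairing the mice, 2699 were higher and 1025 lower (72.5%), and with the block on quantile-normalized values 1918 and 1849 (50.9%). Of the 234 named genes the block changed the call of Glra2 alone. The share of calls not called by the F test across P0 to P6 was 78.2% on the deposited scale and 69.4% after quantile normalization. Among the named genes, uncalled differences changed sign for Scn1a (-0.21 after quantile normalization, -0.10 centred, -0.028 with the block, and -0.069 to 0.20 without 1 mouse), Kcna2 (-0.037 after quantile normalization) and Cplx1 (-0.029 after quantile normalization). Of the other uncalled list members named, quantile normalization turned Sox9 (-0.20), Glul (-0.15), Col1a2 (-0.11), Unc13a (-0.003) and Bmpr2 (-0.095). Fitting the 9 arrays alone lost the call of 23 named genes, leaving out 1 mouse of 10 to 20, and leaving out both arrays of lowest weight of 18; without dim probe sets 173 of the named genes were tested and none changed its call. Of the 94 list counts, those that moved by over 1.5 times numbered 18 after quantile normalization, 23 without dim probe sets, where dim members were left out (8 microglia markers higher, 0 complement genes), 15 with arrays centred, 14 with array weights and 13 with the 9 arrays alone. The causes of these shifts were not tested, except that fits with fewer mice have fewer degrees of freedom. Dim genes are limited by background, which the files do not give.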
